A study of Bos taurus with 60 samples.

Results

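Among 60 beef heifers whose endometrium was sequenced, 32 had received an n-3 PUFA supplement, and 7 of those 32 showed a low level of MX2 (ENSBTAG00000008471). These 7 heifers were chosen by that level alone, as those with log2(CPM + 1) below 5.5, where CPM is the count scaled to a library total of 1e6. By the titles of their libraries, 4 of them were PUFA_Low heifers (replicates 3, 8, 9 and 10) and 3 were PUFA_High heifers (replicates 2, 11 and 15). The comparison between them asked whether the plane of nutrition after insemination was accompanied by differences in transcript abundance in supplemented heifers without an endometrial interferon response.

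All heifers were nulliparous crossbred beef animals with synchronised estrous cycles, and each library came from the uterine endometrium of 1 heifer. Both PUFA groups received a concentrate diet with a fish-oil based product enriched in n-3 PUFA for 30 days before insemination. Both control groups received a protected palmitic acid source in its place. By the methods of the study, each lipid supplement was also fed after insemination, at an unchanged level in the restricted ration. The PUFA_High and CON_High heifers then stayed on a high plane of nutrition for 16 days, and the PUFA_Low and CON_Low heifers were held below their maintenance requirement for the same period. Tissue was taken at slaughter at the end of those 16 days. The ages of the heifers were not given in the labels, and the pregnancy status of single heifers was not used here, so a low level of MX2 is not the same as a heifer without a conceptus. The titles assign 15 supplemented heifers to PUFA_Low and 17 to PUFA_High, as do the group sizes stated in the methods of the study. The deposited description of the design and the pregnant and non-pregnant heifers tallied in those methods give these sizes the other way round. Groups here followed the titles, and every direction given for these heifers holds under that assignment.

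MX2 encodes a GTPase of the myxovirus resistance family, and its transcription rises in cells that receive a type I interferon signal. In ruminants the elongating conceptus secretes interferon tau around the time of maternal recognition of pregnancy, and the endometrium answers with a large rise of interferon-stimulated transcripts. Endometrium is a mixed tissue of luminal and glandular epithelium, stroma, vessels and immune cells. In such bulk samples, fewer cells of a type and less RNA per cell cannot be told apart.

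The level of MX2 was used to choose the heifers and is given here only as a description. In PUFA_Low heifers it was 3.69 in replicate 3, 3.34 in replicate 8, 3.34 in replicate 9 and 2.43 in replicate 10 on the log2 scale, from 166, 104, 107 and 47 reads. In PUFA_High heifers it was 4.36 in replicate 2, 3.53 in replicate 11 and 2.78 in replicate 15, from 207, 116 and 65 reads. The levels of the 2 planes overlapped. Just inside the limit was PUFA_High replicate 2 at 4.36, and just outside it was PUFA_Low replicate 1 at 7.20, so no n-3 PUFA heifer lay near 5.5. The remaining n-3 PUFA heifers, called MX2-high below, had a lowest, median and highest level of 7.20, 9.73 and 11.1 in 11 PUFA_Low heifers and of 8.32, 9.80 and 10.6 in 14 PUFA_High heifers. The control groups held 4 MX2-low CON_Low and 3 MX2-low CON_High heifers by the same limit.

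**Figure D1:**
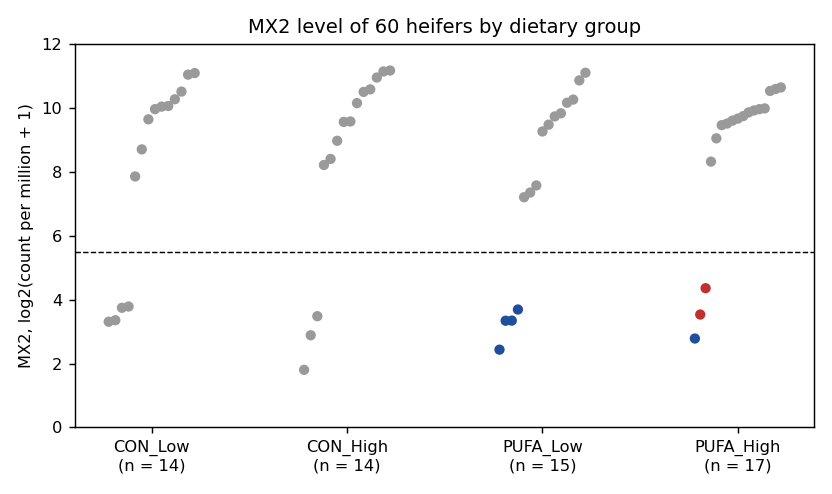
MX2 level of each of the 60 heifers, as log2(CPM + 1), by dietary group; each point is 1 heifer, spread sideways by rank, and the dashed line is the limit of 5.5. The 4 blue points of PUFA_Low and the 1 blue and 2 red points of PUFA_High are the MX2-low n-3 PUFA heifers, between 2.43 and 4.36, with red marking PUFA_High replicates 2 and 11, and no point lies near the line.

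Other transcripts that follow MX2 were also low in the 7 heifers, which were chosen for low MX2. Control heifers, which were not used to choose them, were taken to define 149 genes (0.997% of genes tested) called with more than 4-fold higher abundance in MX2-high than in MX2-low control heifers, MX2 left out. The definition of this list followed a first look at the data. The median log2 CPM over these genes, here and below from TMM-scaled libraries, was 2.53, 1.92, 2.39 and 2.02 in PUFA_Low replicates 3, 8, 9 and 10, and 2.23, 2.38 and 2.39 in PUFA_High replicates 2, 11 and 15. It ranged from 3.1 to 5.8 in MX2-high PUFA_Low heifers and from 3.52 to 5.66 in MX2-high PUFA_High heifers, so the 7 heifers lay below all of them, and their planes overlapped.

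The 7 libraries held 10620187 to 13943813 reads counted on genes, against 9635801 to 13943813 over all 60 libraries, and 14946 of 24616 genes passed the expression filter. Total counts were 11930000 ± 1410000 (SD, n = 4) in PUFA_Low and 10880000 ± 231000 (SD, n = 3) in PUFA_High, a difference that did not pass an exact two-sided permutation test (p = 0.286 raw and 0.429 after adjustment over 3 library measures), for which 0.0286 is the smallest p that 4 against 3 heifers can give. The share of all counts on the 100 most abundant genes was 22.9, 27.8, 22.1 and 33.0% in PUFA_Low replicates 3, 8, 9 and 10, and 21.4, 23.6 and 21.6% in PUFA_High replicates 2, 11 and 15 (exact permutation test, p = 0.257, adjusted p = 0.429). The ranges overlapped, and PUFA_Low replicate 10 had the highest share of the 7. Library codes begin with 6 prefixes, whose meaning is not given in the labels, and only the prefix JE4 held heifers of both planes among the 7 (PUFA_Low replicates 9 and 10 and PUFA_High replicate 11).

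One pair of heifers stood apart from the rest of the series. In PUFA_High replicates 2 and 11, 79 genes were more than 4-fold above each of the other 5 MX2-low n-3 PUFA heifers, and for 74 of these both heifers exceeded all 58 other heifers of the series. A further count of genes more than 4-fold below the other 5 gave 23, of which 21 lay below all 58. These genes were picked by their values in these heifers, so the counts carry no test. The median of the 79 genes, as log2 CPM minus the mean of the control heifers, was 3.44 in PUFA_High replicate 2 and 3.88 in PUFA_High replicate 11. It was -0.12 in PUFA_High replicate 15, the third PUFA_High heifer, and -0.57 to 0.76 in the 53 heifers that were not MX2-low n-3 PUFA heifers. Because PUFA_High holds only these 3 MX2-low heifers, the comparisons below were also run without replicates 2 and 11, and the DEG described by abundance and by heifer rest on both.

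Between PUFA_Low and PUFA_High heifers with low MX2, 1100 DEG were found (7.36% of the 14946 genes tested), 397 of them more abundant (2.66%) and 703 less abundant (4.7%) in PUFA_Low. DEG differed by more than 1.5-fold at a Benjamini-Hochberg false discovery rate of 0.10 in the quasi-likelihood test of edgeR, in a model over all 60 heifers that pools the spread of 8 classes (supplement, plane and MX2 class). Without regard to fold change or adjustment, 2865 genes had an unadjusted p-value under 0.05. The DEG that were less abundant in PUFA_Low differed more, with a median log2 difference of -1.17 (quartiles -1.89 and -0.85) against 0.98 (0.75 and 1.25) for those at higher abundance. More than 4-fold differences were held by 157 of the 703 and by 22 of the 397. Over all genes tested the median log2 difference was -0.0035.

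Without PUFA_High replicates 2 and 11, 1 DEG was left, less abundant in PUFA_Low, while 429 genes reached an unadjusted p-value under 0.05. That comparison sets 4 heifers against PUFA_High replicate 15 alone, which is then assumed to vary as the other classes do. Its counts of genes are therefore no measure of a difference that remains. Leaving out 1 heifer at a time gave 324 DEG without PUFA_High replicate 2, 571 without PUFA_High replicate 11, 647 without PUFA_Low replicate 10 and 1997 without PUFA_High replicate 15. With the spread estimated from the 7 heifers alone, edgeR gave 0 DEG (smallest adjusted p = 0.323, 1607 genes with an unadjusted p-value under 0.05), whereas DESeq2 on the same 7 gave 471. With the 14 MX2-low heifers of all diets, edgeR gave 125 DEG, 9 more and 116 less abundant in PUFA_Low.

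**Figure D2:**
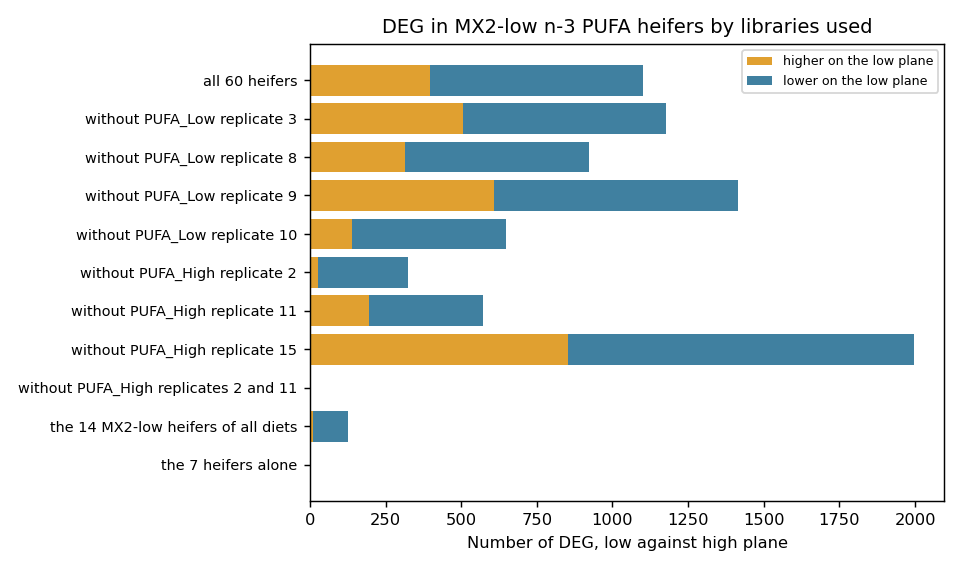
Number of DEG between the planes in MX2-low n-3 PUFA heifers (horizontal axis), stacked by direction, for the model over all 60 heifers, without single heifers, without PUFA_High replicates 2 and 11, with the 14 MX2-low heifers of all diets and with the 7 heifers alone. The bar is longest without PUFA_High replicate 15 (1997 DEG) and nearly vanishes without replicates 2 and 11 (1 DEG) and with the 7 heifers alone (0 DEG).

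The 2 genes of lowest p-value among those less abundant in PUFA_Low were high only in PUFA_High replicates 2 and 11. ENSBTAG00000013912 was at 85.8, 107, 84.9 and 86.7 CPM in PUFA_Low replicates 3, 8, 9 and 10, and at 930, 1130 and 106 CPM in PUFA_High replicates 2, 11 and 15. The planes overlapped by a narrow margin, since PUFA_High replicate 15 lay just below PUFA_Low replicate 8, and none of the 53 heifers outside this comparison exceeded 152 CPM. Its fitted log2 difference was -2.99 (SE 0.30, 7.92-fold lower on the low plane, edgeR adjusted p = 1.04e-09). SEs given here and for the genes below, with their p-values, rest on a spread pooled over the classes of all heifers. They do not measure the spread of the heifers compared, which for this gene was 722 ± 543 CPM (mean and SD, n = 3) in PUFA_High. The log2 difference was -0.22 without PUFA_High replicates 2 and 11. Between the 3 heifers of the prefix JE4 it was -3.72, which rests on replicate 11 as the only PUFA_High heifer there.

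ENSBTAG00000020904 was at 41.6, 31.9, 39.1 and 34.1 CPM in the PUFA_Low heifers in the same order, and at 433.5, 334.5 and 44.8 CPM in the PUFA_High heifers. Here the planes did not overlap, but PUFA_High replicate 15 exceeded the highest PUFA_Low heifer by little. The log2 difference was -2.88 (SE 0.30, 7.38-fold lower, edgeR adjusted p = 1.58e-09), and -0.29 without PUFA_High replicates 2 and 11 (adjusted p = 1). Within the prefix JE4 it was -3.19, again with replicate 11 as the only PUFA_High heifer.

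The 2 genes of lowest p-value among those more abundant in PUFA_Low were graded among the 7 heifers. ENSBTAG00000000711 was at 210, 265, 186 and 226 CPM in PUFA_Low replicates 3, 8, 9 and 10, and at 102, 76.7 and 144 CPM in PUFA_High replicates 2, 11 and 15. All 4 PUFA_Low heifers lay above all 3 PUFA_High heifers. The log2 difference was 1.04 (SE 0.15, 2.06-fold higher, edgeR adjusted p = 3.41e-06), and 0.62 without PUFA_High replicates 2 and 11 (adjusted p = 1). MX2-low control heifers had means of 160 ± 22.2 CPM (SD, n = 4) in CON_Low and 160 ± 6.12 (SD, n = 3) in CON_High, with ranges of 141 to 188 and 156 to 167 CPM. PUFA_High replicate 15 and PUFA_Low replicate 9 lay within the range of the CON_Low heifers, and the other 5 n-3 PUFA heifers lay outside both ranges.

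ENSBTAG00000022989 was at 49.9, 63.5, 46.2 and 54.9 CPM in the PUFA_Low heifers and at 13.1, 23.2 and 34.1 CPM in the PUFA_High heifers, again with no overlap. Its log2 difference was 1.19 (SE 0.23, 2.28-fold higher, edgeR adjusted p = 0.00034), and 0.65 without PUFA_High replicates 2 and 11 (adjusted p = 1). With the spread of the 7 heifers alone the adjusted p-value of each of these 4 genes was 0.323. Their functions are not described here, because the gene table used for names pairs no symbol with the identifiers.

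**Figure D3:**
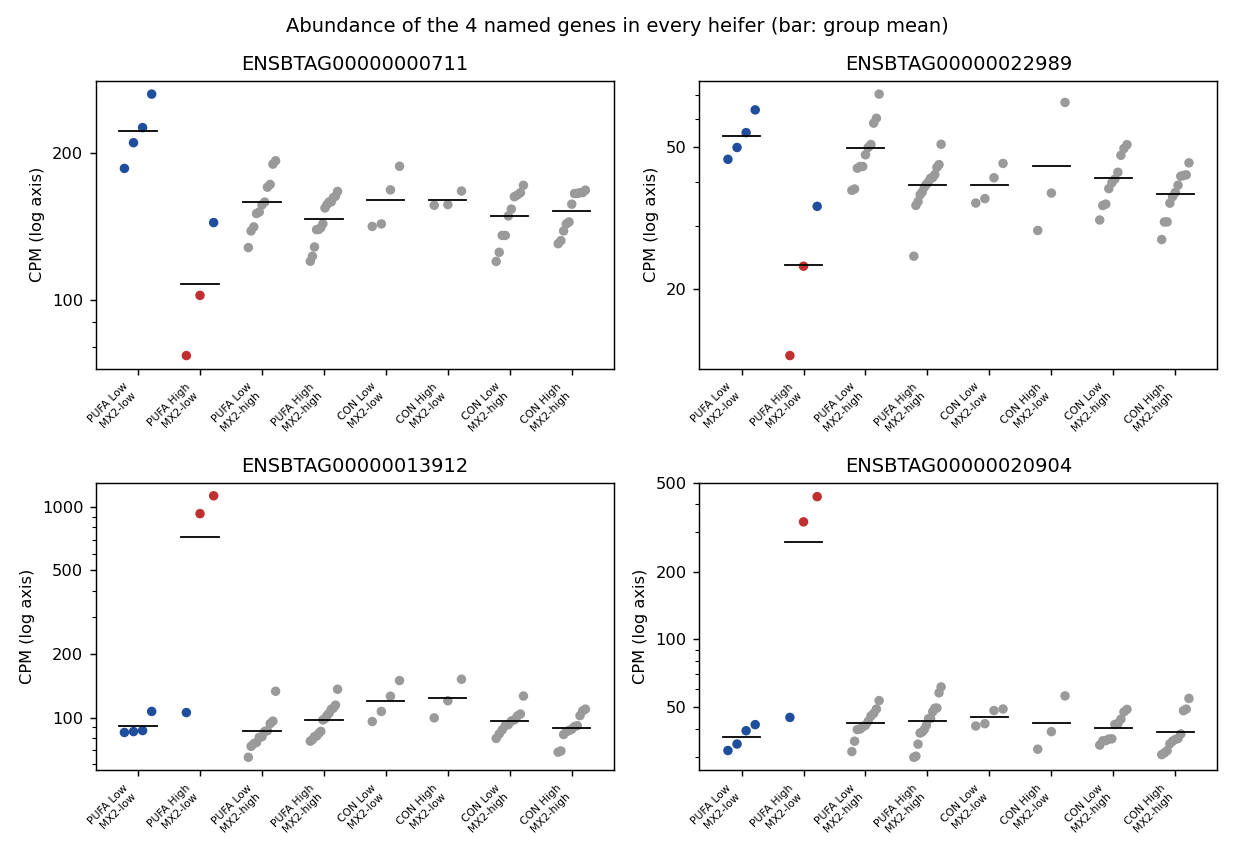
CPM on a log axis of the 4 named genes in every heifer, by dietary group and MX2 class; each point is 1 heifer, bars are group means, blue and red points are the 7 MX2-low n-3 PUFA heifers, red marks PUFA_High replicates 2 and 11, and grey points are the other 53 heifers. In the lower panels the 2 red points stand far above all others, at 930 and 1130 CPM for ENSBTAG00000013912. In the upper panels the blue PUFA_Low points lie above the blue and red PUFA_High points, with no overlap among these 7 heifers. The grey PUFA_Low and PUFA_High points overlap there.

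The same was seen over all DEG, as a description, because the DEG were chosen on these heifers. Of the 703 DEG less abundant in PUFA_Low, PUFA_High replicate 2 exceeded all 4 PUFA_Low heifers in 694 (98.7%) and PUFA_High replicate 11 in 689 (98%), whereas PUFA_High replicate 15 did so in 253 (36%), lay within the range of the PUFA_Low heifers in 387 and below it in 63. Over all genes tested these shares were 27.5, 23 and 18.3%. For the 397 DEG at higher abundance, PUFA_High replicates 2, 11 and 15 lay below all PUFA_Low heifers in 389, 348 and 286 genes (98, 87.7 and 72%), against 27.3, 22.9 and 14.7% of all genes. The planes did not overlap in 259 of the 397 (65.2%, against 5.31% of all genes in that direction) and in 243 of the 703 (34.6%, against 4.85%). The higher DEG thus separated the third PUFA_High heifer from the low plane more often than the lower DEG did. Between the mean of the 4 PUFA_Low heifers and PUFA_High replicate 15 alone, the median log2 difference was 0.62 for the 397 genes, 392 of them above 0, and -0.25 for the 703 genes, 513 of them below 0.

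The control heifers gave a common level against which each heifer was placed. The median of the 397 higher DEG, as log2 CPM minus the mean of the 28 control heifers, was 0.22, 0.56, 0.083 and 1.01 in PUFA_Low replicates 3, 8, 9 and 10, and -0.80, -0.37 and -0.12 in PUFA_High replicates 2, 11 and 15. PUFA_Low replicate 10 was the highest of the 60 heifers and PUFA_High replicate 2 the lowest, and the remaining 5 of the 7 lay inside the range of the other 53 heifers (-0.39 to 0.78). The median of the 703 lower DEG was -0.13, -0.16, -0.055 and -0.37 in the PUFA_Low heifers, and 1.27, 1.28 and 0.046 in the PUFA_High heifers, against -0.20 to 0.25 in the other 53. For the lower DEG, therefore, PUFA_High replicate 15 and all PUFA_Low heifers but replicate 10 lay inside the range of the other 53 heifers.

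**Figure D4:**
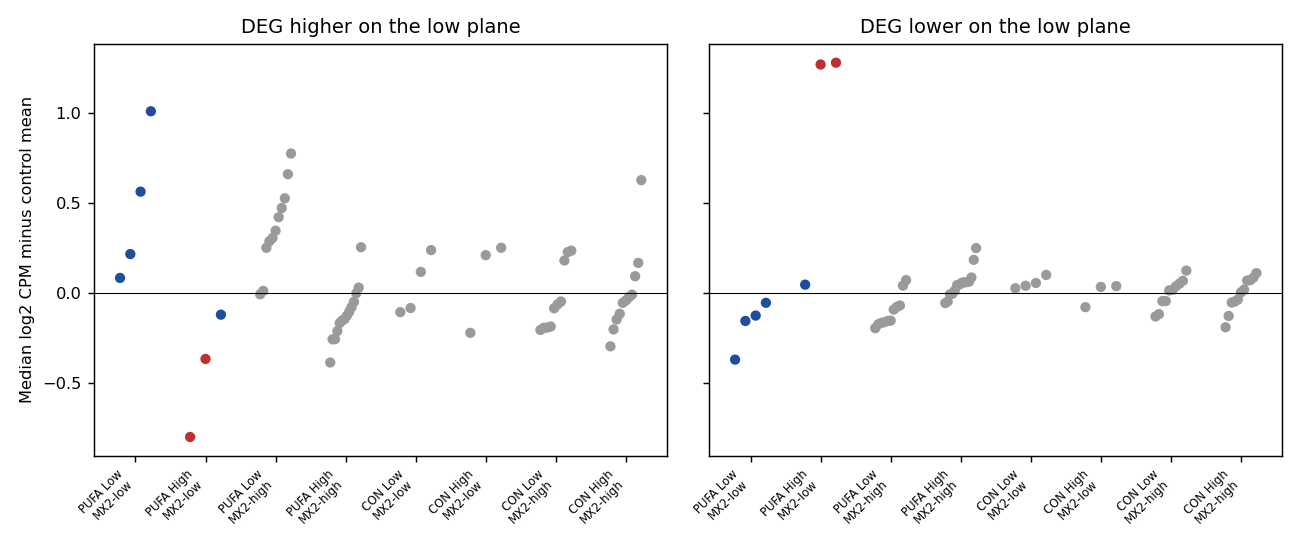
Median log2 CPM minus the control mean, over the 397 DEG more abundant (left) and the 703 DEG less abundant in PUFA_Low (right), for each of the 60 heifers by dietary group and MX2 class; blue and red points are the 7 heifers on which the DEG were chosen, red marks PUFA_High replicates 2 and 11, and the line marks 0. On the right the 2 red points, at 1.27 and 1.28, stand alone above all others, and on the left the PUFA_Low heifers reach up to 1.01.

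Abundant transcripts were more frequent among the higher DEG. The median log2 CPM, which is not corrected for gene length, was 6.04 for the 397 higher DEG, 4.26 for the 703 lower DEG and 4.39 for all genes tested. With the genes ranked by mean CPM and cut into 4 equal parts, in the highest part 209 were higher (5.59%) and 160 lower (4.28%) on the low plane, whereas in the lowest part 52 were higher (1.39%) and 176 lower (4.71%). Among the 100 genes of highest mean CPM, 37 were higher and 1 lower, with a median log2 difference of 0.63. In the MX2-high n-3 PUFA heifers, 45 of the same 100 genes were higher at the same thresholds, with a median of 0.42. The share of counts taken by the most abundant genes ranged from 22.1 to 33.0% in these PUFA_Low and from 21.4 to 23.6% in these PUFA_High heifers. In a model with that share as a covariate 929 DEG were found, 209 higher and 720 lower. Scaled by total count alone, 249 were higher and 879 lower. The median log2 difference of the same 100 genes was 0.505 in the model without PUFA_High replicates 2 and 11, where 1 DEG was left.

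The MX2-high n-3 PUFA heifers (11 PUFA_Low and 14 PUFA_High) share no heifer with the 7, and the genes called in them were followed in the 7. They held 774 DEG between the planes (5.18% of genes tested), 338 more abundant (2.26%) and 436 less abundant (2.92%) in PUFA_Low. With the share of the 100 most abundant genes as a covariate these became 15, and scaled by total count alone 1262. Of these 774 genes, 676 (87.3%, 95% Wilson interval 84.8 to 89.5%, which treats genes as independent, which they are not) had a difference of the same direction in the 7 heifers, against 68.5% of all genes tested. The direction was kept by 311 of the 338 higher genes (92%), with a median log2 difference of 0.89 in the 7 heifers and 0.77 in the MX2-high heifers. It was kept by 365 of the 436 lower genes (83.7%), with medians of -0.36 and -0.70.

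Calls overlapped mainly among the higher genes. Of the 338 higher genes, 142 (42%) were also called higher in the 7 heifers, where 2.66% of all genes were, and of the 436 lower genes 43 (9.86%) were also called lower, where 4.7% of all genes were. In all, 187 genes were called in both classes, which is 17% of the 1100 and 24.2% of the 774, and 185 of them had the same direction. Without PUFA_Low replicate 10, 44 of the 774 genes were called in the MX2-low heifers. With the 14 MX2-low heifers alone, 724 of the 774 genes were tested and 8 were called. Across the 14946 genes, which are not independent replicates, the log2 differences of both classes had a Pearson's r of 0.36 and a Spearman's rho of 0.46. With PUFA_High replicates 2 and 11 left out, r and rho were 0.30 and 0.45, with replicate 15 as the only MX2-low PUFA_High heifer.

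The likeness of direction, but not the shared calls, was also seen without PUFA_High replicates 2 and 11. In their absence 649 of the same 774 genes (83.9%) had the same direction, against 69.6% of all genes, with medians of 0.73 for the 338 higher and -0.355 for the 436 lower genes. Without PUFA_Low replicate 10 it was 591 of the 774 (76.4%) against 60.5%, with medians of 0.57 and -0.23. Seen per heifer, the median of the 338 higher genes relative to the control mean was 0.18, 0.65, 0.041 and 1.34 in PUFA_Low replicates 3, 8, 9 and 10, and -0.65, -0.0066 and -0.084 in PUFA_High replicates 2, 11 and 15. All 4 PUFA_Low heifers lay above all 3 PUFA_High heifers, with replicate 9 close to the control mean. The other 53 heifers ranged from -0.50 to 1.15, and all of the 7 but PUFA_Low replicate 10 and PUFA_High replicate 2 lay inside that range. Both ends of it were MX2-high n-3 PUFA heifers, on which the 338 genes were chosen. The control heifers ranged from -0.395 in CON_Low to 1.04 in CON_High replicate 11, which lay above PUFA_Low replicates 3, 8 and 9. The median of the 436 lower genes was -0.074, -0.61, 0.33 and -0.79 in the PUFA_Low heifers, and 0.23, 0.051 and 0.17 in the PUFA_High heifers, so that the planes overlapped, with PUFA_Low replicate 9 the highest of the 7.

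**Figure D5:**
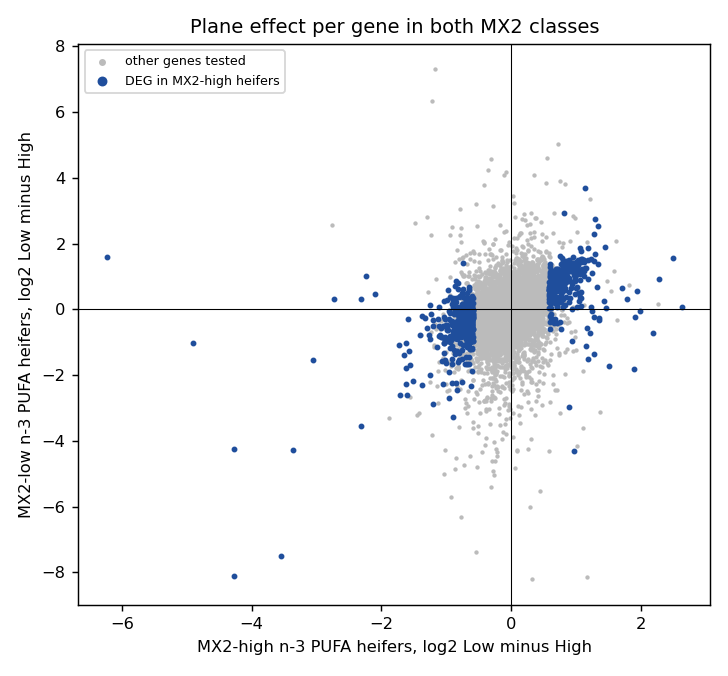
Fitted log2 difference between the low and the high plane for each of the 14946 genes, in the 25 MX2-high n-3 PUFA heifers (horizontal axis) and in the 7 MX2-low n-3 PUFA heifers (vertical axis); blue points are the 774 DEG of the MX2-high heifers and grey points all other genes. Of the blue points, 676 lie in the upper right or lower left quadrant, and many grey points spread downwards near a horizontal value of 0.

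The plane effect also differed between the MX2 classes. The test of that difference called 321 genes (2.15%), 27 with a more positive (0.181%) and 294 with a more negative (1.97%) difference in the 7 heifers than in the MX2-high heifers. Without PUFA_High replicates 2 and 11, edgeR called 0 genes, with 175 at an unadjusted p-value under 0.05. The named genes were chosen by their small p-values between the planes in the 7 heifers. Their difference between the classes contains that same plane effect, so its size and p-value were partly set by the choice. For these genes it is therefore given as a description. ENSBTAG00000013912 and ENSBTAG00000020904 had log2 differences of -0.18 and -0.03 between the planes in MX2-high heifers (edgeR adjusted p = 0.454 and 0.916). They differed between the classes by -2.81 and -2.85 (adjusted p = 1.2e-07 for each). ENSBTAG00000000711 was at 0.12 in MX2-high heifers (adjusted p = 0.314) and differed by 0.93 (adjusted p = 0.000409). ENSBTAG00000022989 was at 0.33 in MX2-high heifers (adjusted p = 0.0366, below the fold limit) and differed by 0.86 (adjusted p = 0.0659).

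The interferon-linked transcripts, whose levels in both planes were partly set by the choice of heifers with low MX2, are given as a description. Of the 149 genes defined in control heifers, edgeR called 0 between the planes in the 7 heifers, where 7.36% of all genes were called. DESeq2 called 2 of the 149, and 1220 of the 14946 genes tested. In edgeR, 4 of the 149 (2.68%) had an unadjusted p-value under 0.05, against 19.2% of all genes. The median log2 difference of the 149 was 0.087. In the MX2-high n-3 PUFA heifers, where 5.18% of all genes were called, 6 of the 149 were, 2 higher and 4 lower. The median of the 149 was -0.032 there. These shares depend on the heifers that set the spread. With the 14 MX2-low heifers alone, 105 of the 149 genes were tested, edgeR called 0, and 13 (12.4%) had an unadjusted p-value below 0.05, against 14.4% of all genes. Without PUFA_High replicates 2 and 11, edgeR called 0 of the 149 and 1 (0.671%) had an unadjusted p-value below 0.05, against 2.79% of all genes.

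In MX2-low control heifers, 4 CON_Low and 3 CON_High, 13 DEG were found between the planes (0.087% of genes tested). All of them were less abundant in CON_Low. Without CON_High replicate 9 edgeR called 0, and 191 of 15113 genes tested had unadjusted p-values below 0.05. The count of DEG was 197 without CON_High replicate 5 and 334 without CON_High replicate 14, and 1 or 2 without any 1 of the 4 CON_Low heifers. The 4 named genes had log2 differences of 0.0006, -0.18, -0.05 and 0.09 there (ENSBTAG00000000711, ENSBTAG00000022989, ENSBTAG00000013912 and ENSBTAG00000020904, edgeR adjusted p = 1, 0.878, 0.976 and 0.961). The test of the difference between the n-3 PUFA and control heifers, both MX2-low, called 640 genes (4.28%), 281 with a more positive (1.88%) and 359 with a more negative (2.4%) difference in n-3 PUFA heifers. Without PUFA_High replicates 2 and 11 it called 0 genes, with 781 at an unadjusted p-value under 0.05. In that same model 11 DEG were found between the planes in MX2-low control heifers and 1 in MX2-low n-3 PUFA heifers.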

How the data were processed

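Endometrial RNA of 60 heifers was sequenced as single-end libraries. The authors aligned the reads with TopHat2 2.0.9 to UMD3.1, counted them on genes with HTSeq 0.5.4p5 and deposited raw counts of 24616 Ensembl genes without normalization. CASAVA 1.4 is also listed in the submitters' processing notes. Whether counting used strand is not given in the sources used here. Genes were filtered with filterByExpr of edgeR 4.0.16 (R 4.3.3), which kept 14946, and libraries were TMM scaled. The quasi-likelihood model had 8 classes (supplement, plane, MX2 class). Standard errors were derived from the F statistic and so rest on the spread pooled over these classes. DEG differed by more than 1.5-fold at a Benjamini-Hochberg rate of 0.10 over all genes tested, a wider rate than the one the methods of the study state. Log2 CPM values used a prior count of 2. Interferon-linked genes were set in control heifers by a fold of 4.

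The heifers, lists, limits and tests were chosen with earlier results of these data known. The named genes are the 2 higher and 2 lower genes of smallest p by identifier, together with MX2, since 0 of the 24616 identifiers matched the gene table (37063 genes, ARS-UCD2.0). The planned lists by symbol, tissue markers included, could therefore not be used, and the tissue was not checked against its markers.

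The 21 pairs among the 7 libraries of MX2-low n-3 PUFA heifers were checked for repeated deposits. The smallest chi-square per gene was 21.8, far above sampling noise. The 7 heifers share 0 replicate numbers across planes. Same-numbered heifers across the series had a mean correlation of deviations of -0.05, so numbers did not pair them. Alternatives were other scale factors, filters and thresholds, DESeq2 1.42.0, the likelihood ratio test, other heifers in the model, blocks, library covariates, MX2 limits of 4.5 and 6.5, and leaving out each heifer. The model of the 14 MX2-low heifers, DESeq2 on the 7 and leaving out PUFA_High replicates 2 and 11 together, with lists of genes kept from the model of all heifers, were added once results were known.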

Additional observations from a re-analysis of the deposited data

Results flagged for a closer look

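In the 4 MX2-low PUFA_Low heifers, the CPM of ENSBTAG00000013912 in replicate 8 (107) was far from the other 3, with a gap of 0.919 of the range of the group. A gap of this kind is expected by chance in about 1 of 20 groups.

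The plane effect differed between MX2-low and MX2-high n-3 PUFA heifers in 321 genes, and between n-3 PUFA and control heifers, both MX2-low, in 640 genes. In log2 units these differences were 0.93 and 1.04 for ENSBTAG00000000711, and 0.86 and 1.37 for ENSBTAG00000022989. They were -2.81 and -2.94 for ENSBTAG00000013912, and -2.85 and -2.97 for ENSBTAG00000020904. These genes were chosen by their small p-values between the planes in the MX2-low n-3 PUFA heifers. Both differences contain that plane effect, so their sizes for these genes were partly set by the choice. Without PUFA_High replicates 2 and 11, edgeR called 0 genes in either test, with 175 and 781 genes at an unadjusted p-value under 0.05.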

How the results depend on the processing

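Limits of 4.5 and 6.5 for MX2 gave the same classes as 5.5. The 1100 DEG of the 7 heifers became 158 at an adjusted p-value under 0.001 (4 higher, 154 lower), 0 with the 7 heifers alone, 125 with the 14 MX2-low heifers, 471 by DESeq2 on the 7, 324 to 1997 without single heifers and 1 without PUFA_High replicates 2 and 11, and the other 16 alternatives stayed within 1.5 times. The 4 named genes kept their direction in all 25 alternatives and lost their call in edgeR with the 7 heifers alone and without both heifers, as ENSBTAG00000022989 did with the 14 MX2-low heifers. The 774 DEG of MX2-high heifers became 1262 when scaled by total count (180 higher, 1082 lower), 96 at 0.001, 3626 without the fold limit and 15 with the share of the 100 most abundant genes as a covariate, and the split was 405 higher to 346 lower with upper-quartile factors. The 321 genes became 63 at 0.001, 115 to 1069 without single heifers (147 without PUFA_High replicate 2, 115 without replicate 11, 1069 without replicate 15) and 0 without both heifers. The 13 DEG of MX2-low controls became 7 with upper-quartile factors, 36 by DESeq2, 33 by the likelihood ratio test, 6 at 0.05, 0 at 0.001, 0 with those heifers alone (625 genes at an unadjusted p-value under 0.05), 1 with the code prefix as a block, 59 with the abundance covariate and 0 to 334 without single heifers, all 7 of which moved it (0 without CON_High replicate 9, 334 without replicate 14). The 640 genes became 269 at 0.05, 14 at 0.001, 0 with the 14 heifers alone (1528 at an unadjusted p-value under 0.05), 341 with the prefix block, 422 with the covariate, 139 to 1381 without single heifers (139 without PUFA_High replicate 2, 1381 without CON_High replicate 14) and 0 without both. The share of 87.3%, over the genes called anew in each model, was 90.0% with at least 10 counts in every library, 76.7 to 92.4% without single heifers and 81.0% of 821 genes without both. With the replicate block, which does not pair these heifers, the 1100, 774, 321, 13 and 640 became 913, 468, 204, 0 (1645 with an unadjusted p-value below 0.05) and 244. The cause of these changes was not tested.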
